A study of Mus musculus with 36 samples.

Results

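The genes of the proteasome, the barrel-shaped protease that degrades ubiquitin-tagged proteins, were taken as the protein-coding genes whose mouse symbol is Psma, Psmb, Psmc, Psmd, Psme, Psmf or Psmg followed by a number. Symbols came from the Ensembl identifiers of the files through GENCODE release M21 (mm10). The rule gave 48 of 54232 gene identifiers. The 2 protein-coding symbols that carry letters after the number were left out: Psmc3ip, a gene of meiotic recombination, and Psme2b, a copy of Psme2. RNA was sequenced from 36 libraries of BMDM, macrophages that were raised from mouse bone marrow over 5 days in macrophage colony-stimulating factor at 20 ng/mL. There were 6 groups of 6 libraries: wild type (WT; C65BL6 in the series' description) or NOS1 KO, each untreated (control) or exposed for 2 or 8 h to lipopolysaccharide (LPS, from the outer membrane of bacteria) at 100 ng/mL. The sources used here do not give how the NOS1 KO was made, nor the age, sex or number of the animals.

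In the 20S core particle, a ring of alpha subunits (Psma genes) closes each end of a pair of beta rings (Psmb genes), and the beta subunits encoded by Psmb5, Psmb6 and Psmb7 cut peptide bonds. Interferon-exposed and immune cells replace these by the immunosubunits encoded by Psmb8 (for Psmb5), Psmb9 (for Psmb6) and Psmb10 (for Psmb7), which changes the peptides that are cut and loaded on major histocompatibility complex (MHC) class I molecules. The core is opened by the 19S cap (Psmc ATPases and Psmd non-ATPase subunits), by the PA28 ring of Psme1 and Psme2, by the nuclear PA28 gamma of Psme3 or by PA200 of Psme4. Psmf1 encodes the inhibitor PI31. Psmg1 to Psmg4 encode chaperones of core assembly, and Psmd5, Psmd9 and Psmd10 chaperones of cap assembly.

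Counts per library summed to between 8953489 and 18482551, and the 48 genes took between 0.458% and 0.752% of them. All 8 macrophage markers were detected in every group, with sums of 12570 to 22430 CPM (counts scaled to library size with TMM factors). Nos1 went against the genotype labels: its median was 0.03 CPM in WT-labelled controls and 4.47 CPM in KO-labelled controls, and it lay between 0 and 0.855 CPM in all WT-labelled and between 1.005 and 5.07 CPM in all KO-labelled libraries. The sources used here do not give which part of Nos1 was deleted, and the groups are called by their labels throughout. The libraries also fell into a pair of unlabelled sets, A (replicates 1, 2 and 6 of each group) and B (replicates 3, 4 and 5), found from the first principal component of all other genes within groups (38.9% of the variance), with 18 libraries each. Replicate 1 of each WT-labelled group, in set A, held 370.3 to 534.3 CPM of Xist, the RNA of the inactive X chromosome, which was below 1 CPM in all others, and 4 WT-labelled LPS libraries held over 100 CPM of skeletal muscle markers, up to 4096 CPM. The labels do not say whether replicate libraries are separate animals or cultures, so p-values measure only the spread between libraries, which may be technical. In such bulk RNA, fewer cells of a type and less RNA per cell cannot be told apart.

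After 8 h of LPS most proteasome genes were higher in the macrophages of both genotype labels relative to the median gene, with the largest changes in the immunosubunit and PA28 genes. In the WT-labelled libraries 37 of 47 tested genes rose and 3 fell, where 34.2% of all 12957 tested genes rose and 37% fell (edgeR quasi-likelihood test, Benjamini-Hochberg adjusted p below 0.05). In the KO-labelled libraries 35 rose and 3 fell, against 34.9% and 37.1% of all genes. The median log2 fold change of the 47 genes was 0.53 and 0.50, against -0.06 and -0.06 for all genes. In 34 genes the rise was called under both labels, in 3 the fall, and no gene was called in opposite directions. The lowest 8 h library lay above the highest control in 35 genes under the WT label (26.3% of all genes) and in 33 under the KO label (27%).

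At 2 h fewer genes were called, and the counts depend on the unlabelled sets. In the WT-labelled libraries 15 genes rose, against 20.3% of all genes higher and 17.6% lower. In the KO-labelled libraries 11 rose, against 18.9% higher and 16.4% lower. The genes called lower numbered 0 under both labels in edgeR, DESeq2 and limma-voom, with 19 and 21 of the 47 genes at an unadjusted p below 0.05 in either direction. With the set as a term in the edgeR fit, 20 and 21 genes were higher and 1 was lower under each label. The shares of all genes called by that fit are not given here. In set B alone 34 and 33 were higher and 0 lower (26.4% and 25% of all genes higher, 24.3% and 22.9% lower). In set A alone 10 and 9 were higher, near the shares of all genes (21.1% and 18.4%). There 1 and 0 were lower (17.1% and 14.4% of all genes), the lower gene being Psmg1 (-0.67, adjusted p = 0.00906, edgeR). Without 1 library at a time, the count of higher genes under the KO label lay between 9 and 18, moved by control replicate 4 and 2 h replicates 1 and 6. Between 2 and 8 h, 34 genes rose and 3 fell in the WT-labelled libraries (30% and 32.7% of all genes) and 30 rose and 4 fell in the KO-labelled libraries (31.5% and 33.7%). The median log2 fold change at 2 h was 0.16 and 0.14.

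These counts depend on how libraries are scaled. With library totals in place of the trimmed mean of M-values (TMM), the median gene moved at 8 h. Its log2 fold change was -0.83 under the WT label and -0.88 under the KO label. The proteasome genes split into 14 higher and 28 lower and into 13 higher and 30 lower. Of all 12957 tested genes, 2191 were higher and 8838 lower under the WT label, and 2163 higher and 8933 lower under the KO label. The 100 genes with most counts took a median of 27.1% of the counts in WT-labelled controls and 31.5% at 8 h. A group of 14 genes rose at 8 h under both scalings in the WT-labelled libraries: Psma2, Psma3, Psma4, Psma5, Psma6, Psmb6, Psmb8, Psmb9, Psmb10, Psmd10, Psmd11, Psme1, Psme2 and Psme4. The same genes except Psmd11 did so in the KO-labelled libraries. Psma8, Psmg1 and Psmg2 fell under both scalings and both labels. In 18 genes under each label the call turned from higher to lower. In a further 5 (WT label) and 4 (KO label) a higher call was lost. For all tested genes the TMM values below are changes relative to the median gene, and library-total values are relative to all counts.

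**Figure D1:**
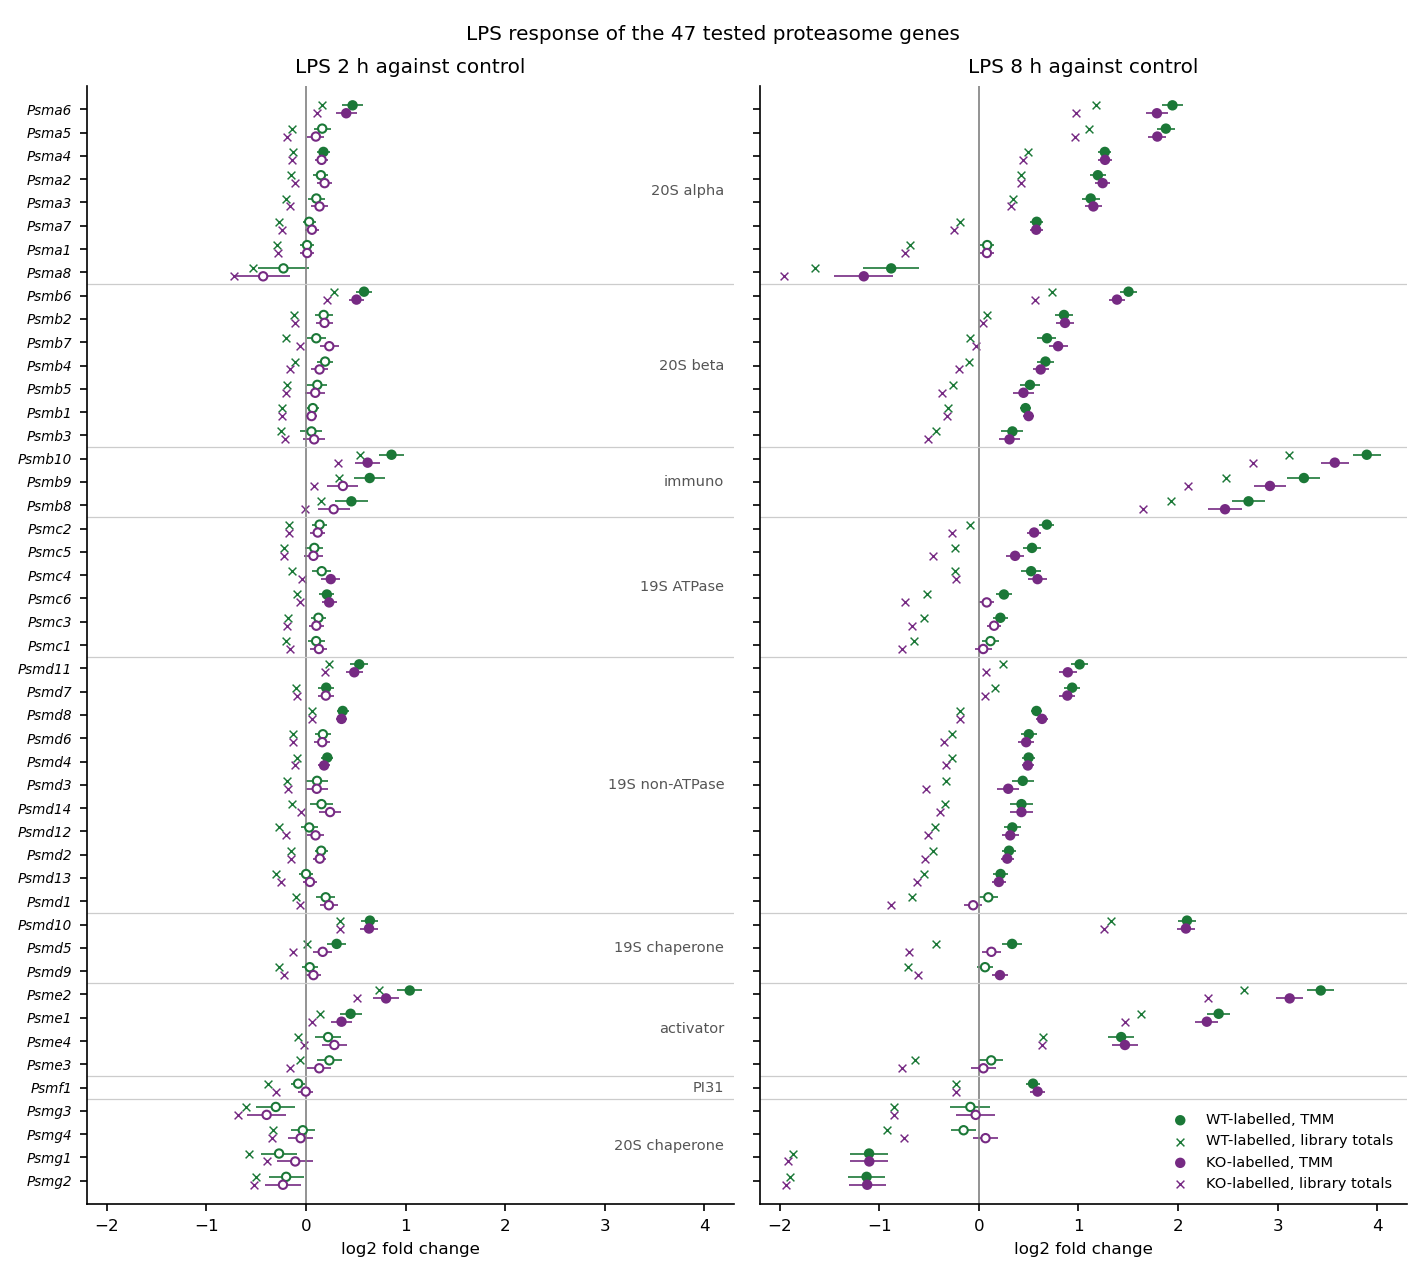
Log2 fold change (x axis) of the 47 tested proteasome genes (y axis, grouped by role) after 2 h (left) and 8 h (right) of LPS, with standard errors as bars. Circles are TMM-scaled edgeR values, filled where the adjusted p was below 0.05, and crosses are the values scaled by library totals; green is WT-labelled and purple KO-labelled. At 8 h the immunosubunits, Psme1, Psme2 and Psmd10 lie right of 1 under both scalings, while the crosses of most 19S genes lie left of 0.

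The promoters of the genes that rose most and of Psmb6, the constitutive catalytic gene that rose most, are shown because these genes moved together (RefSeq, GRCm38.p6; from 150 bases before to 30 after the annotated start, 5′ to 3′ on the gene's strand, capitals for a motif).
Psmb10 (chr8:105938363-105938542, minus strand): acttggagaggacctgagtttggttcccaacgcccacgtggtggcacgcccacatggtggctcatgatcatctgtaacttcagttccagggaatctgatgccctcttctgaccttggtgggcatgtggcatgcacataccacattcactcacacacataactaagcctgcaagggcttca
Psmb9 (chr17:34187301-34187480, minus strand): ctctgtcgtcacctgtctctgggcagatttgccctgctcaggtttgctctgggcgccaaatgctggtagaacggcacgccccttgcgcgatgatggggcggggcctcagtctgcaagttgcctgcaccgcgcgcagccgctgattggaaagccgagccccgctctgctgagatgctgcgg
Psmb8 (chr17:34198045-34198224, plus strand): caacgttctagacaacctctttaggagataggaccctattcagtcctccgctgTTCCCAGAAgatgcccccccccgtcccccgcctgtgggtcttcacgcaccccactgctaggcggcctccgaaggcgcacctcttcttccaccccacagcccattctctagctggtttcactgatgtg
Psme1 (chr14:55578344-55578523, plus strand): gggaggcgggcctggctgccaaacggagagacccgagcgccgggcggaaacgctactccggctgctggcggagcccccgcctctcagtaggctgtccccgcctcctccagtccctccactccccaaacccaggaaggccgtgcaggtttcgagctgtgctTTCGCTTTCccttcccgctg
Psme2 (chr14:55591072-55591251, minus strand): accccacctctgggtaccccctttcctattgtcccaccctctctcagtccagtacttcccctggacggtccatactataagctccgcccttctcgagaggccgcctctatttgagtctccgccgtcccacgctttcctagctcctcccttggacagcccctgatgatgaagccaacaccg
Psmb6 (chr11:70525207-70525386, plus strand): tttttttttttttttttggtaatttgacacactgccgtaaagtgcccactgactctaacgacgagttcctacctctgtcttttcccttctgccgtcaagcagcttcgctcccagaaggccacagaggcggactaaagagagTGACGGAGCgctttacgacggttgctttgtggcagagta
The windows of 250 bases before to 50 after each start were searched on both strands for the letters GAAANNGAA (an interferon-stimulated response element), TTCNNNGAA (a gamma-activated sequence), GGANNTTCC (a kB site) and TGACNNNGC (an antioxidant response element, the form bound by the NRF factors). Of the 48 genes, 40 had a window. Psmb8 holds TTCCCAGAA, a match to the gamma-activated letters, 97 bases before its start, and Psme1 holds TTCGCTTTC, the interferon element read on the other strand, 11 bases after it. Psmb6 holds TGACGGAGC, a match to the antioxidant letters, 9 bases before its start. No such letters were in the windows of Psmb9, Psmb10 or Psme2. The interferon element was in 7 member genes (8.56% of all windows hold it): Psme1, Psmb3, Psmb4, Psmc2, Psmd4, Psmd9 and Psmg4. The gamma-activated letters were in 3 (8.30%): Psmb8, Psmd2 and Psmg1, which fell at 8 h. The kB letters were in 5 (4.26%): Psma1, Psmc2, Psmd8, Psme3 and Psme4. The antioxidant letters were in 6 (12.39%): Psmb5, Psmb6, Psmc6, Psmd9, Psmd12 and Psme4. A link between these letters and the changes was not tested. Psmb9 and Tap1 lie head to head on chromosome 17, with 225 bases between their starts.

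Of the immunosubunit genes, Psmb10 (ENSMUSG00000031897, chr8:105935735-105938444, mm10) rose most. It was at 29.3, 37.6 and 57.0 CPM (lowest, median and highest of 6) in WT-labelled controls, 60.01, 67.7 and 101 CPM at 2 h and 508.6, 584.8 and 655.6 CPM at 8 h. In the KO-labelled libraries it was at 45.3, 51.5 and 58.6 CPM in controls, 65.9, 79.6 and 93.7 CPM at 2 h and 544.8, 612.0 and 684.6 CPM at 8 h. All 2 h libraries lay above all controls and all 8 h libraries above all 2 h libraries, under both labels. The log2 fold change at 8 h was 3.90 ± 0.14 (SE) under the WT label and 3.58 ± 0.14 under the KO label (adjusted p of 1.3e-22 and 8.25e-22, edgeR).

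Psmb9 (ENSMUSG00000096727, chr17:34181987-34187764) went from 19.1, 21.7 and 32.8 CPM in WT-labelled controls to 29.5, 36.3 and 40.0 CPM at 2 h and 196.2, 216.4 and 256.4 CPM at 8 h. The KO-labelled values were 23.7, 31.3 and 40.6 CPM, then 23.3, 42.8 and 52.3 CPM, then 199.1, 244.6 and 279.5 CPM. The 8 h libraries stood apart from all others, and the 2 h libraries overlapped with the controls under both labels. Its log2 fold change at 8 h was 3.27 ± 0.17 and 2.92 ± 0.16 (adjusted p of 1.88e-18 and 2.09e-17, edgeR). Psmb9 shares 212 exon bases with Tap1 on the opposite strand, and without a strand setting in the sources the reads of these bases cannot be told apart.

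Psmb8 (ENSMUSG00000024338, chr17:34197721-34201454) was at 29.7, 39.1 and 58.0 CPM in WT-labelled controls, 49.1, 55.1 and 68.5 CPM at 2 h and 217.2, 255.8 and 307.8 CPM at 8 h. In the KO-labelled libraries the values were 37.9, 50.1 and 64.6 CPM, then 40.3, 61.4 and 77.2 CPM, then 244.5, 267.2 and 342.3 CPM. Again only the 8 h libraries stood apart from the rest. The log2 fold change at 8 h was 2.71 ± 0.17 and 2.47 ± 0.17 (adjusted p of 5.27e-16 and 4.32e-15, edgeR). Psmb11, the thymus-specific catalytic subunit, was not tested: it had 4 counts in all 36 libraries.

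The catalytic subunits that the immunosubunits replace moved less and not alike. Psmb6 rose from 161.0, 193.2 and 211.0 CPM in WT-labelled controls to 248.7, 289.8 and 316.5 CPM at 2 h and 467.7, 537.8 and 623.7 CPM at 8 h. These 3 groups did not overlap, and neither did those of the KO-labelled libraries, with medians of 186.7, 277.8 and 494.4 CPM. The log2 fold change at 8 h was 1.504 ± 0.081 and 1.39 ± 0.08, called under both scalings (adjusted p of 7.05e-18 and 5.38e-17, edgeR). Psmb5 had medians of 53.9, 61.2 and 74.4 CPM under the WT label and 49.4, 56.5 and 68.3 CPM under the KO label. Its log2 fold change at 8 h was 0.51 and 0.45 with TMM and -0.25 and -0.37 with library totals, so its direction depends on the scaling. Psmb7 had medians of 55.9, 61.7 and 88.9 CPM and of 54.9, 63.7 and 89.2 CPM. Its 8 h values of 0.69 and 0.80 became -0.08 and -0.02 with library totals, again with a change of sign. Psmb7 shares 405 exon bases with Nek6 on the opposite strand, whose log2 fold change at 8 h was -1.56 and -1.07.

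**Figure D2:**
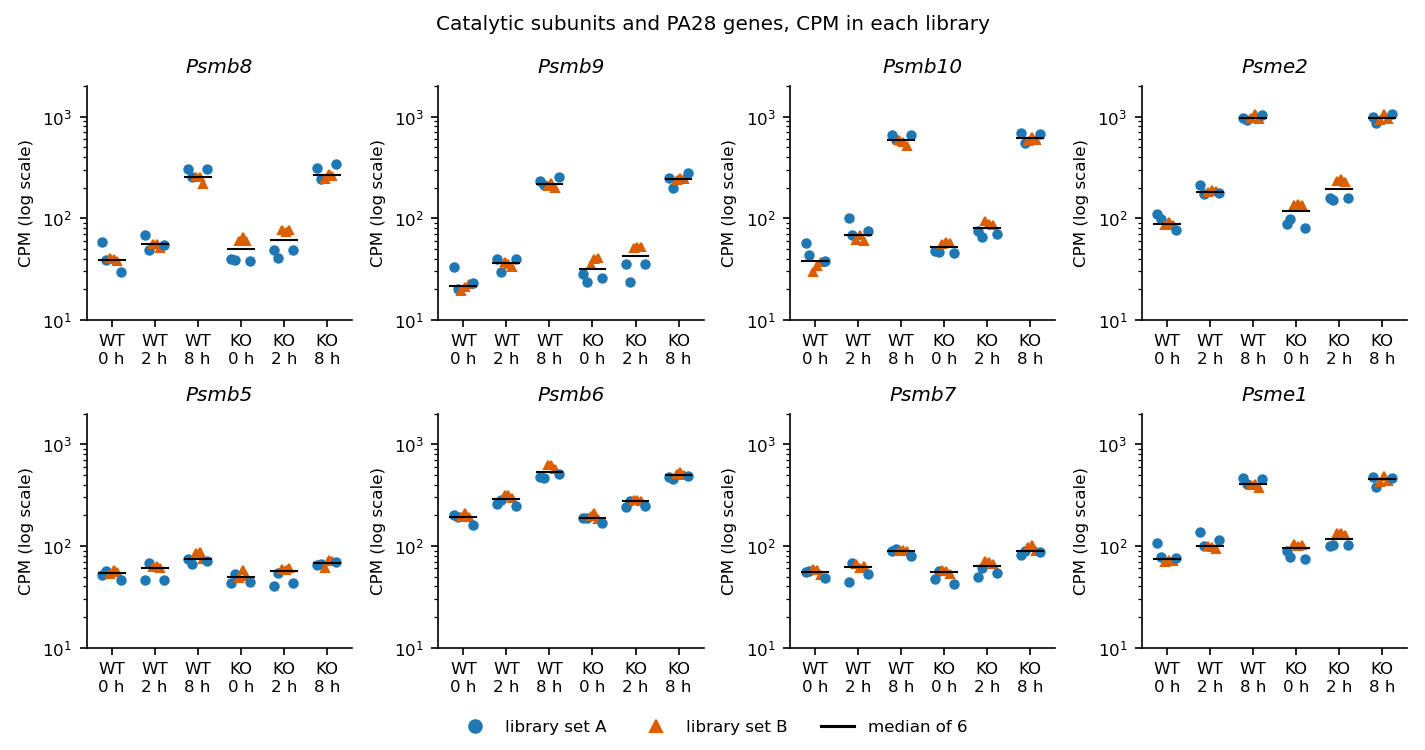
CPM on a log scale (y axis) of the immunosubunits Psmb8, Psmb9 and Psmb10, the subunits they replace (Psmb5, Psmb6, Psmb7) and the PA28 genes Psme1 and Psme2, in the 6 groups (x axis: genotype label and hours of LPS). Each symbol is a library, circles for set A and triangles for set B, and bars are medians of 6; the 8 h libraries of the immunosubunits and of both PA28 genes lie above all others.

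Ratios within a library do not depend on the scaling. The log2 ratio of Psmb10 to Psmb7 rose by 3.24 ± 0.17 (SE) at 8 h in the WT-labelled and by 2.78 ± 0.11 in the KO-labelled libraries. Psmb8 over Psmb5 rose by 2.22 ± 0.16 and 2.05 ± 0.15, and Psmb9 over Psmb6 by 1.79 ± 0.17 and 1.56 ± 0.13. In each of these 6 comparisons no 8 h library overlapped with a control, and the exact two-sided permutation test of 6 against 6 libraries gave p = 0.00216, the smallest it can give, with an adjusted p of 0.00649 over 21 tests. At 2 h only the Psmb10 to Psmb7 ratio passed, with 0.78 ± 0.25 (exact permutation test, adjusted p = 0.0227) under the WT label and 0.39 ± 0.09 (adjusted p = 0.00649) under the KO label. The 2 h rise under the WT label lost its call without the 2 WT-labelled 2 h libraries of high muscle markers (0.81, adjusted p = 0.06) and without the 6 libraries with BMDM in the genotype label (0.76, adjusted p = 0.0741), both from the exact permutation test with fewer libraries. For Psmb9 over Psmb6 the 2 h values were 0.07 and -0.16 (adjusted p of 0.696 and 0.571, exact permutation test).

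Per kilobase of the longest protein-coding transcript, Psmb10 made up a median of 39.5% of Psmb10 and Psmb7 together in WT-labelled controls and 85.1% at 8 h, where the lowest library was at 83.4%. In the KO-labelled libraries the medians were 47.7% and 85.0%. The share of Psmb8 in the sum of Psmb8 and Psmb5 went from 27.4% to 65.2% and from 35.8% to 68.2%. Psmb9 went from 6.13% to 19.2% and from 8.82% to 22.03% of the sum of Psmb9 and Psmb6. These shares depend on the length taken: with the length of merged exons, the 8 h medians of Psmb10, Psmb8 and Psmb9 under the WT label were 92.8%, 47.5% and 17.1%, so under the WT label whether Psmb8 or Psmb5 was the larger at 8 h turned with the length. Under the KO label the Psmb8 median was 50.8% with merged exons, and Psmb9 was the smaller of its pair with both.

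**Figure D3:**
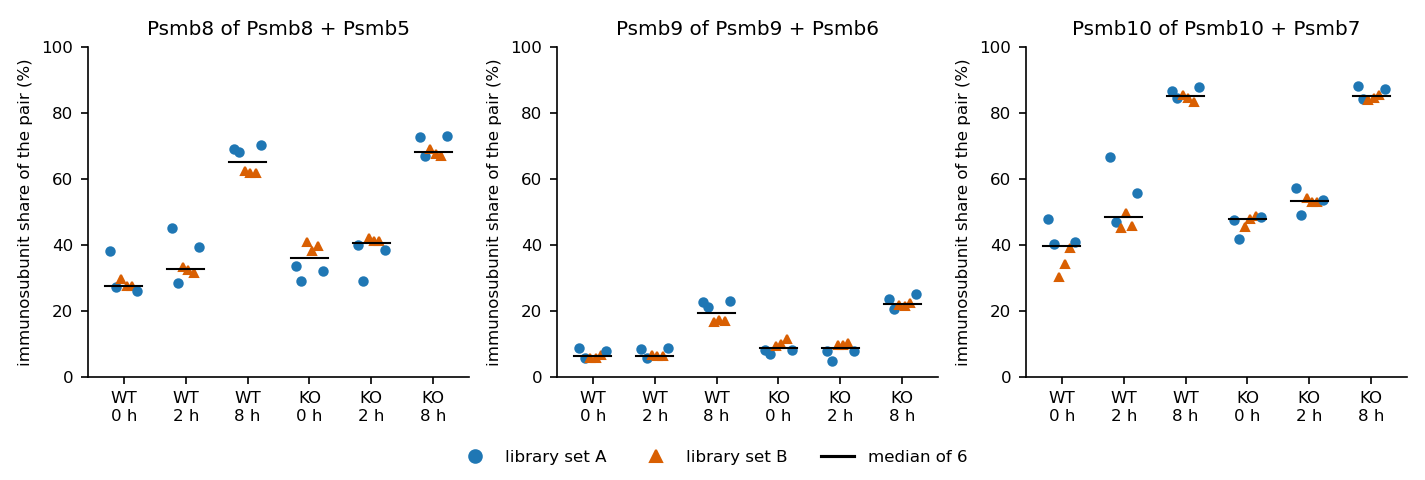
Share (%, y axis) of the immunosubunit transcript in the sum of each catalytic pair, per kilobase of the longest protein-coding transcript, in the 6 groups (x axis). Each symbol is a library, circles for set A and triangles for set B, and bars are medians of 6; at 8 h the share of Psmb10 is 83.4% or more in every library, and that of Psmb9 25.1% or less.

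The genes of the PA28 activator rose with the immunosubunits. Psme2 (ENSMUSG00000079197, chr14:55587441-55591113) was at 77.3, 87.8 and 110.8 CPM in WT-labelled controls, 174.4, 182.7 and 213.6 CPM at 2 h and 919.0, 969.7 and 1058 CPM at 8 h. The KO-labelled values were 79.7, 116.4 and 138.4 CPM, then 152.3, 193.8 and 244.8 CPM, then 855.7, 970.7 and 1071 CPM. Neither label had an overlap between its 3 groups. The log2 fold change was 1.04 ± 0.13 and 0.80 ± 0.13 at 2 h and 3.43 ± 0.14 and 3.12 ± 0.14 at 8 h (adjusted p at 8 h of 2.52e-21 and 2.22e-20, edgeR). Its copy Psme2b, 99.4% identical over 794 aligned bases, held 10458 counts to the 160889 of Psme2, so some reads of Psme2 may be counted there. By the mean CPM per kilobase, Psme2 went from rank 9 of the 48 genes in WT-labelled controls to rank 1 at 8 h, and Psmb10 from rank 34 to rank 3.

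Psme1 (ENSMUSG00000022216, chr14:55578123-55581529) had medians of 73.7, 100.6 and 407.5 CPM under the WT label, with 371.5 to 470.8 CPM at 8 h, and of 94.3, 115.9 and 454.4 CPM under the KO label. Its 8 h libraries lay above all others, and its log2 fold change was 2.41 ± 0.12 and 2.29 ± 0.12 (adjusted p of 3.25e-19 and 1.16e-18, edgeR). Psme4, whose product PA200 caps the core without ATP, had control medians of 62.0 and 66.8 CPM and 8 h medians of 162.9 and 176.6 CPM, with no overlap, and a log2 fold change of 1.43 ± 0.13 and 1.47 ± 0.13. Psme3 had medians of 95.5, 109.8 and 98.4 CPM and of 100.0, 96.6 and 94.5 CPM. Its groups overlapped, and its log2 fold change at 8 h of 0.13 ± 0.12 and 0.05 ± 0.12 was not called with TMM and was called lower with library totals (-0.64 and -0.77).

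The alpha ring genes moved unequally. At 8 h 6 of its 8 genes rose under both labels and 1 fell, with a median log2 fold change of 1.16 under the WT label. Psma6 went from 106.2, 120.7 and 133.0 CPM in WT-labelled controls to 400.7, 474.8 and 505.8 CPM at 8 h, a log2 fold change of 1.95 ± 0.11, and by 1.79 ± 0.11 under the KO label. Psma5 went from 71.6, 81.3 and 94.2 CPM to 271.4, 291.8 and 329.4 CPM, a change of 1.88 ± 0.09, and by 1.79 ± 0.09 under the KO label. The 8 h libraries of both genes stood clear of their controls. Psma4, Psma2 and Psma3 rose by 1.27, 1.20 and 1.12 under the WT label and by 1.27, 1.24 and 1.15 under the KO label, also under both scalings. Psma7 had 0.58 under either label, and lost its sign with library totals (-0.19 and -0.25). Psma1 was not called with TMM, with WT-labelled medians of 119.7 CPM in controls and 130.6 CPM at 8 h, and had a log2 fold change of 0.09 ± 0.07 and 0.08 ± 0.07 (adjusted p of 0.279 and 0.294, edgeR; lower with library totals, at -0.69 and -0.74). Psma8, the alpha subunit of the testis proteasome, had 529 counts in all 36 libraries. It was at 1.11, 1.45 and 2.26 CPM in WT-labelled controls and 0.659, 0.849 and 0.965 CPM at 8 h, without overlap, and its KO-labelled libraries overlapped (0.714 to 2.01 and 0.205 to 1.06 CPM). It fell by 0.88 and 1.15 on the log2 scale at 8 h. In set A alone the fall under the WT label was not called (-0.967, adjusted p = 0.0757, edgeR). Its log2 fold change from 2 to 8 h was -0.652 and -0.723. That call was lost in 10 (WT label) and 7 (KO label) fits without 1 library.

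Among the other beta subunits, Psmb2 had log2 fold changes at 8 h of 0.86 and 0.87, Psmb4 of 0.67 and 0.62, Psmb1 of 0.47 and 0.50 and Psmb3 of 0.34 and 0.31, all called higher with TMM. With library totals Psmb2 kept its sign (0.08 and 0.05) without a call, and Psmb4, Psmb1 and Psmb3 turned negative (-0.10, -0.31 and -0.43 under the WT label). At 2 h only Psmb6 of the 7 constitutive beta genes was called, under both labels.

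The 19S cap genes had smaller changes. Of 6 ATPase genes 5 were called higher at 8 h under the WT label, with log2 fold changes between 0.22 and 0.68, and 3 under the KO label. Of 11 non-ATPase genes 10 were called under each label, between 0.22 and 1.01 under the WT label. With library totals Psmd7 and Psmd11 alone of these 17 kept a positive value under the WT label. Psmd11, a scaffold subunit of the lid, had medians of 83.5, 123.0 and 167.4 CPM under the WT label and 84.8, 113.8 and 154.5 CPM under the KO label, with 8 h libraries above all controls. Its log2 fold change was 0.53 and 0.48 at 2 h and 1.01 ± 0.09 and 0.89 ± 0.09 at 8 h. Psmd7, another lid gene, had 0.94 ± 0.08 and 0.89 ± 0.08 at 8 h, and the lid gene Psmd8 had 0.58 and 0.64, which became -0.19 and -0.18 with library totals. Psmd1, the largest base subunit, and the ATPase Psmc1 were not called under either label (0.10 and -0.06, and 0.12 and 0.05). The 17 cap genes took a median of 0.296% of all counts in WT-labelled controls and 0.232% at 8 h, with ranges of 0.259% to 0.306% and 0.208% to 0.254% that did not overlap.

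Of the chaperones of cap assembly, Psmd10, also known as gankyrin, stood apart. It was at 22.1, 25.0 and 28.7 CPM in WT-labelled controls, 33.5, 38.8 and 43.9 CPM at 2 h and 92.5, 107.0 and 119.1 CPM at 8 h, and its KO-labelled medians were 24.0, 37.6 and 104.1 CPM. No group overlapped with another of its label. The log2 fold change was 0.64 ± 0.09 and 0.63 ± 0.09 at 2 h and 2.09 ± 0.09 and 2.08 ± 0.09 at 8 h (adjusted p at 8 h of 8.2e-21 and 9.54e-21, edgeR). Psmd5 was called higher at 8 h under the WT label only (0.34 and 0.13) and Psmd9 under the KO label only (0.06 and 0.21), with no called difference between the labels' responses in the pooled fit. In set B alone the response of Psmd5 was lower under the KO label (-0.39, adjusted p = 0.0025, edgeR). Both turned negative with library totals. Psmd9 lies 5210.6 kb from Nos1 on chromosome 5.

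The chaperones of core assembly went the other way. Psmg2 was at 12.4, 14.5 and 17.9 CPM in WT-labelled controls and at 5.96, 6.70 and 7.55 CPM at 8 h, and Psmg1 at 10.9, 13.0 and 14.4 CPM and at 5.28, 5.83 and 7.06 CPM. Every 8 h library was below every control for both genes under both labels. On the log2 scale Psmg2 fell by 1.13 ± 0.19 and 1.12 ± 0.19 and Psmg1 by 1.10 ± 0.19 and 1.10 ± 0.19 (adjusted p between 2.09e-06 and 4.7e-06, edgeR). Their products form the heterodimer on which the alpha ring is built. Psmg3 and Psmg4, which form a second heterodimer, were not called at 8 h (-0.08 and -0.03, and -0.15 and 0.07) and were lower with library totals. Psmf1, the gene of the inhibitor PI31, had 0.55 and 0.59 with TMM and -0.23 and -0.23 with library totals, and was called in opposite directions.

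As a share of all counts, which is scaling by library totals, the 48 genes went from a median of 0.571% in WT-labelled controls to 0.559% at 2 h and 0.701% at 8 h. Psmb8, Psmb9 and Psmb10 together went from 0.0123% to 0.0812%, and Psme1 and Psme2 from 0.0205% to 0.106%. Without these 5 genes the other 43 held 0.538% in controls and 0.514% at 8 h, with ranges of 0.467% to 0.549% and 0.470% to 0.555% that overlapped. In the KO-labelled libraries the 43 genes held 0.522% and 0.480%. The 8 alpha ring genes went from 0.0988% to 0.140% under the WT label and from 0.0986% to 0.131% under the KO label, also without overlap.

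**Figure D4:**
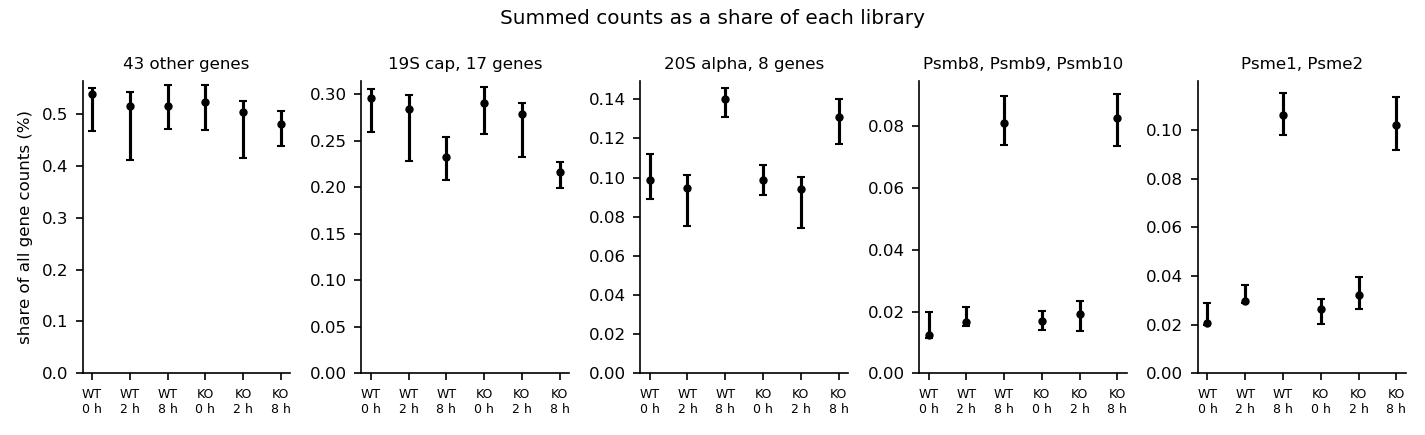
Summed counts of 5 groups of proteasome genes as a share of all gene counts of the library (%, y axes starting at 0, each with its own scale) in the 6 groups (x axis). Points are medians of 6 libraries and bars span the lowest to the highest; at 8 h the immunosubunits, Psme1 with Psme2 and the alpha ring lie above their controls, and the 19S cap lies below.

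The genes around the proteasome were described from lists chosen with earlier results of these data known. Of 20 genes of MHC class I presentation, 17 rose at 8 h under each label (34.2% and 34.9% of all genes). Their median log2 fold change was 2.25 and 2.14. With library totals 16 and 17 were higher and 3 lower, beside 2191 and 2163 of all 12957 genes higher and 8838 and 8933 lower. Tap1 and Tap2, the peptide transporter into the endoplasmic reticulum, rose by 4.49 and 3.47 under the WT label and by 4.15 and 3.41 under the KO label. Nlrc5, the transactivator of MHC class I genes, rose by 4.36 and 4.12, Tapbp, which bridges transporter and MHC, by 3.61 and 3.18, and Cd274, the ligand of the checkpoint receptor PD-1, by 6.23 and 6.01. The general chaperones Calr, Canx and Pdia3 were not called (-0.004, 0.15 and -0.02 under the WT label) and were lower with library totals (-0.76, -0.62 and -0.79).

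Regulators of proteasome genes were called at both times. Irf1, which drives immunosubunit genes, had risen by 5.06 and 4.66 at 2 h and by 4.82 and 4.67 at 8 h. Nfe2l1, whose product drives constitutive subunit genes when the proteasome is short, rose by 0.90 and 0.81 at 2 h and 0.91 and 0.91 at 8 h, of which the 8 h values were not called with library totals (0.14 and 0.08), while Ddi2, the protease that activates it, fell by 1.29 and 1.24 at 2 h and 1.46 and 1.61 at 8 h. In all, 8 of 10 tested regulators were higher and 1 lower at 8 h under each label. Of all genes, 34.2% and 34.9% were higher and 37% and 37.1% lower. With library totals 6 regulators were higher and 2 lower, beside 2191 and 2163 of all 12957 genes higher and 8838 and 8933 lower.

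Of 17 tested proteasome genes with other symbols, 8 were called higher at 8 h under each label and 6 (WT) and 5 (KO) lower, beside 34.2% and 34.9% of all genes higher and 37% and 37.1% lower. With library totals 1 was higher and 13 were lower under each label. Of all 12957 genes, 2191 and 2163 were then higher and 8838 and 8933 lower. The library-total values of the lists were computed after the data were seen. Pomp, the maturation factor of the core, had 0.79 and 0.81 with TMM and 0.015 and -0.015 with library totals. Adrm1, the ubiquitin receptor of the cap, had 0.46 and 0.31 with TMM and was lower with library totals (-0.31 and -0.51). Fbxo7, a partner of PI31, was higher with both scalings (1.13 and 1.23, and 0.35 and 0.40). The shuttle factor Ubqln2 fell by 1.40 and 1.32, and the cap's deubiquitinases Uchl5 by 0.71 and 0.61 and Usp14 by 0.40 and 0.54. Of 11 tested genes of ubiquitin and ubiquitin-like modifiers, 7 and 9 were higher with TMM, beside the same 34.2% and 34.9% of all genes. They were led by Isg15, an interferon-induced modifier, at 7.96 and 6.08, and Uba7, its activating enzyme, at 4.04 and 3.63. With library totals 7 and 6 were higher and 4 and 4 lower, beside the same counts of all genes as above.

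No proteasome gene was called different between the genotype labels in the pooled libraries. The count of called members was 0 of 47 in controls, at 2 h and at 8 h with edgeR, DESeq2 and limma-voom, where 0.116% of all genes were higher and 0.00772% lower in controls, 0.0154% and 0.00772% at 2 h and 0.054% and 0.0463% at 8 h. At an unadjusted p below 0.05 there were 3, 0 and 1. The tests of a different LPS response between the labels also called 0 members at 2 and 8 h with the same 3 tools (0 at an unadjusted p below 0.05; 0% of all genes). The smallest p-values in controls were those of Psmb9, Psmb10 and Psme2, with log2 differences (KO-labelled minus WT-labelled) of 0.48, 0.38 and 0.31 and adjusted p-values of 0.481, 0.517 and 1 (edgeR). Without WT-labelled control replicate 1, the library with high Xist, Psmb10 was called (0.51, adjusted p = 0.0401, edgeR). The ratio of Psmb10 to Psmb7 was higher by 0.48 ± 0.16 in the KO-labelled controls (exact permutation test, adjusted p = 0.0303), a call that 9 of the 12 leave-one-out values lost (0.38 to 0.59). The ratio of Psmb9 to Psmb6 was higher by 0.49 ± 0.17 with an adjusted p of 0.05, not below the threshold, and that of Psmb8 to Psmb5 by 0.41 ± 0.17 (adjusted p = 0.0785, exact permutation tests).

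Within set B the 3 immunosubunit and 2 PA28 genes were higher in the KO-labelled controls. Of the controls, Psmb9 was at 34.4, 39.3 and 40.6 CPM in the 3 KO-labelled and 19.1, 20.8 and 22.5 CPM in the 3 WT-labelled libraries of set B. Psmb10 was at 55.3, 57.3 and 58.6 CPM against 29.3, 33.9 and 37.3 CPM, Psmb8 at 60.2, 60.2 and 64.6 CPM against 37.5, 39.5 and 40.3 CPM, Psme2 at 134.4, 135.2 and 138.4 CPM against 84.7, 84.9 and 90.8 CPM and Psme1 at 99.9, 101.3 and 104.4 CPM against 69.1, 71.6 and 71.9 CPM. None of these 5 overlapped between the labels in set B. That was 3 libraries against 3, and the share of all genes without overlap in set B is not given here. In set A the KO-labelled controls were at 23.7, 25.5 and 28.3 CPM of Psmb9 and the WT-labelled at 19.9, 22.9 and 32.8 CPM, and the ranges of all 5 genes overlapped.

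With set B alone, edgeR called 7 members higher and 0 lower in KO-labelled controls, where 7.04% of all genes were higher: Psmb9 (log2 difference 0.89), Psmb10 (0.78), Psmb8 (0.67), Psme2 (0.66), Psme1 (0.54), Psma6 (0.20) and Psmc2 (0.19). At 2 h it called the first 5 (0.35 to 0.57; 6.73% of all genes higher), and at 8 h only Psmb9 (0.22) and Psme1 (0.19) higher and 12 members lower (18.4% and 13% of all genes). The largest of these decreases were in Psmd5 (-0.42), Psmd3 (-0.30) and Psmd1 (-0.27). With set A alone it called 0 members at any time, where 0.0469% of all genes were higher in controls. The difference between the sets was tested as an interaction of set and label. It was called for Psme1, Psmb8, Psmb10, Psme2 and Psmb9 in controls (set B minus set A of 0.63, 0.77, 0.75, 0.75 and 0.83; 1.94% of all genes called) and at 2 h (0.65, 0.82, 0.71, 0.61 and 0.79; 2.16%), and at 8 h only for Psmd5 (-0.44; 5.68%). From control to 8 h the log2 response of set B was lower under the KO label in 14 members (8.13% of all genes), led by Psme2 (-0.69), Psmb10 (-0.67) and Psmb9 (-0.66). Control libraries of a label lay closer together in set B than in set A. The chi-square per gene between 2 such libraries was 2.795 to 5.057 (KO label) and 3.589 to 8.423 (WT label) in set B. In set A it was 8.756 to 35.433 and 12.691 to 18.746. Whether the 3 libraries of a label in set B share a source is not given, so the set B p-values may measure technical spread only.

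The same libraries differed in other genes of the pathway. In set B controls 17 of 20 MHC class I genes were higher under the KO label (7.04% of all genes). Their median log2 difference was 0.77 (set A: 0 called, median -0.09), and Irf9 was higher by 1.36, Tap1 by 1.29 and B2m by 0.93. In set B controls the summed CPM of dendritic cell markers was 356.3 or more under the KO label and between 144.9 and 175.8 under the WT label. In set A controls the sums of these markers were 153.7 to 233.3 CPM and 184.1 to 232.7 CPM. In set B controls only 1 of the 8 tested genes of the dendritic cell list was called, Bst2 (1.63), which interferon also induces. At 8 h in set B 4 of these 8 were called higher under the KO label, beside 18.4% of all genes. They were Flt3 (1.885), Xcr1 (0.973), Bst2 (0.394) and Ccr7 (0.344). All 9 genes of the list were detected in the controls of each label, and their part in the result was not tested. The summed markers of 6 other cell types were lower under the KO label in set B controls without overlap: macrophage (14080 to 15720 against 15970 to 16780 CPM), neutrophil (88.9 to 101.8 against 154.9 to 173.8), erythroid and megakaryocyte (at most 123.1 against at least 168.6), stromal (18.6 to 22.7 against 40.4 to 49.5), B cell (18.6 to 19.6 against 31.9 to 33.3) and T and NK cell (6.77 to 7.15 against 10.1 to 11.6). In set A controls the neutrophil sums were apart the other way (53.9 to 60.3 under the KO label against 24.2 to 42.8), and those of the other 5 overlapped. The part of these cell types was not tested either. The labels name neither the sets nor a batch, and what sets the libraries apart was not tested.

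**Figure D5:**
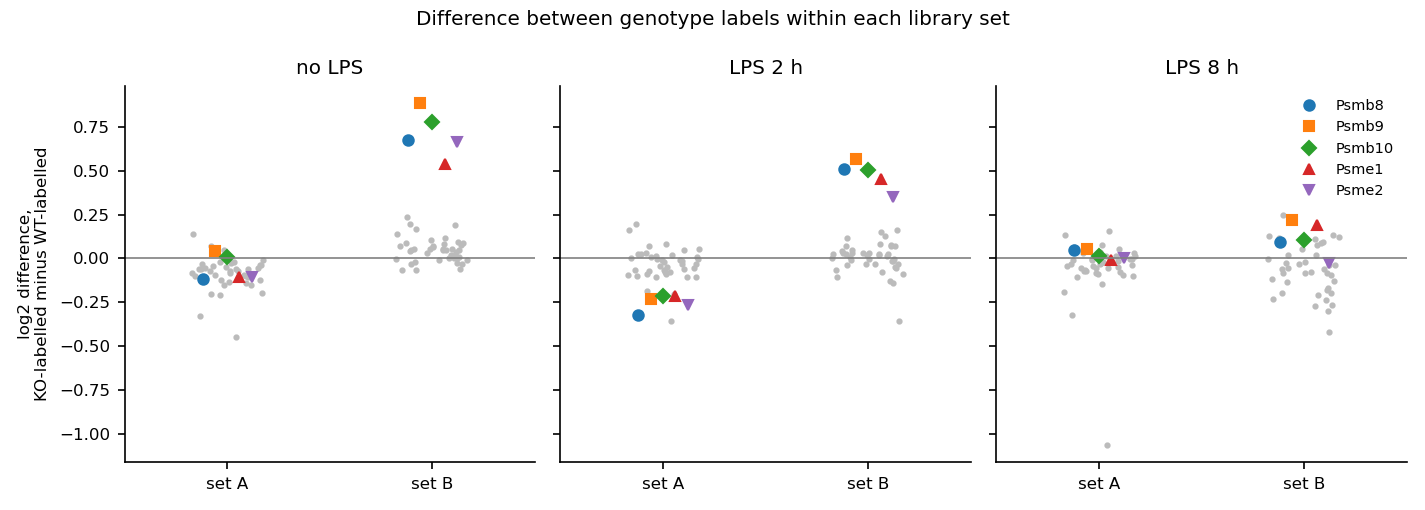
Log2 difference between KO-labelled and WT-labelled libraries (y axis) within set A and within set B (x axis, 3 against 3 libraries) without LPS and after 2 and 8 h. Coloured symbols are Psmb8, Psmb9, Psmb10, Psme1 and Psme2 and grey points the other 42 tested proteasome genes; the coloured symbols lie above 0.3 in set B without LPS and at 2 h, and near or below 0 in set A.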

How the data were processed

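RNA-seq counts of 36 libraries were used. The deposited values are unnormalised read counts by Ensembl gene, made with HTSeq on mm10, per the submitters' processing notes. Aligner, annotation, HTSeq version and strand setting: not given in the sources used here. Identifiers were named with GENCODE release M21, which held 54165 of 54232. Groups came from the genotype and treatment labels, and replicate numbers only name libraries. All 36 libraries entered 1 fit: edgeR 4.0.16 in R 4.3.3, TMM scaling, filterByExpr (12957 genes kept), robust quasi-likelihood test, Benjamini-Hochberg adjustment over all genes, threshold 0.05. CPM are TMM-scaled. Levels between genes are CPM per kilobase of the longest protein-coding transcript. Log2 ratios of catalytic pairs were compared with exact two-sided permutation tests. Alternatives were library totals, DESeq2 1.42.0, limma-voom (limma 3.58.1), other filters, a minimum fold, left-out libraries and the library sets. The fit was also run on simulated data with the same relative spread for all genes and no library sets. That run cannot show how the fit behaves with the sets found here. Depth per library limits the precision of low genes such as Psma8.

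Named with values by library were the catalytic pairs, the Psme genes and, per LPS comparison, the 3 other genes with the largest called change in each direction. For genotype labels these were the called genes or the 3 with the smallest p. The proteasome genes and all gene lists were chosen with earlier results of these data known. No library was left out of the main fit. The result of 1 listed gene is not reported here.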

Additional observations from a re-analysis of the deposited data

Results flagged for a closer look

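In 102 groups of 6 libraries checked for a library far from the others, 9 were marked, where chance marks about 1 in 20. Of these, 6 were in replicate 1 of the WT-labelled groups. In WT-labelled control replicate 1, Psmb9 was at 32.79 CPM (others 19.11 to 22.85), Psme1 at 106.2 CPM (69.13 to 78.13) and the log2 ratio of Psmb8 to Psmb5 at -0.694 (-1.509 to -1.246). In WT-labelled 2 h replicate 1, Psmb8 was at 68.46 CPM (49.11 to 55.32), Psmb10 at 101 CPM (60.01 to 74.67) and Psma6 at 122.7 CPM (159.5 to 181.4). Psmd10 was at 25.93 CPM in KO-labelled control replicate 1 (23.4 to 24.1). In KO-labelled 2 h replicate 2 the log2 ratio of Psmb8 to Psmb5 was -1.292 (-0.683 to -0.471) and that of Psmb9 to Psmb6 -4.343 (-3.564 to -3.162).

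The log2 difference between the genotype labels differed between the library sets in 11 tests of that interaction (edgeR, adjusted p below 0.05). In controls, set B minus set A was 0.63 for Psme1, 0.769 for Psmb8, 0.751 for Psmb10, 0.749 for Psme2 and 0.825 for Psmb9. At 2 h it was 0.653 for Psme1, 0.823 for Psmb8, 0.708 for Psmb10, 0.608 for Psme2 and 0.789 for Psmb9. At 8 h it was -0.443 for Psmd5. The sets were found in these data, and their source was not tested.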

How the results depend on the processing

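With library totals, the genes called higher and lower were 5 and 11 (WT label) and 4 and 11 (KO label) at 2 h, 14 and 28, and 13 and 30, at 8 h, and 15 and 16, and 13 and 22, from 2 to 8 h. Of all 12957 genes, 1578 and 6030, and 1477 and 5789, were called at 2 h. At 8 h these were 2191 and 8838, and 2163 and 8933, and from 2 to 8 h 2124 and 7413, and 2168 and 7755. With a minimum log2 fold change of 1, the proteasome genes called higher were 1 and 0 at 2 h, 14 and 13 at 8 h and 12 and 12 from 2 to 8 h, where 0 and 0 were lower. The shares of all genes at this minimum are not given here, so these counts have no background beside them. With the set as a term, 21 were higher at 2 h under the KO label and 1 was lower under each label, again without the shares of all genes. In set A alone, 1 was lower at 2 h under the WT label (17.1% of all genes), and 1 and 2 were lower from 2 to 8 h (29.3% and 29.9%). In set B alone, 34 and 33 were higher at 2 h (26.4% and 25% of all genes), and 5 lower at 8 h under the KO label (39.6%). In KO-labelled libraries of set B, 7, 5 and 2 were higher at control, 2 h and 8 h (7.04%, 6.73% and 18.4%). There 12 were lower at 8 h (13%), and 1 and 14 were lower in response at 2 and 8 h (0.956% and 8.13%).

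In sets A and B alone, the log2 ratio of Psmb10 to Psmb7 differed between labelled controls by 0.178 and 0.783, Psmb8 to Psmb5 by 0.09 and 0.735 and Psmb9 to Psmb6 by 0.088 and 0.886. At 2 h Psmb9 to Psmb6 differed by -0.184 and 0.689. The 8 h response under the KO label was 2.404 and 1.692 for Psmb8 to Psmb5 and 1.827 and 1.295 for Psmb9 to Psmb6. With 3 against 3 libraries the exact permutation test cannot go below p = 0.1. Without the 6 libraries with BMDM in the genotype label, Psmb10 to Psmb7 gave 0.485 between labelled controls (adjusted p = 0.0833, exact permutation test) and 0.757 at 2 h under the WT label, which was 0.805 without the libraries with muscle markers.

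Signs turned with library totals for Psmb5 (WT label -0.189 at 2 h, -0.254 at 8 h, -0.064 from 2 to 8 h; KO label -0.2, -0.373, -0.172), Psmb7 (-0.201 and -0.084; -0.059 and -0.023 at 2 and 8 h), Psme3 (-0.065 and -0.642; -0.16 and -0.774), Psme4 at 2 h (-0.086; -0.016) and Psmb8 at 2 h under the KO label (-0.013). In set A alone they turned for Psmb5 at 2 h under the KO label (-0.016), Psme3 from 2 to 8 h (0.069 and 0.16), the label difference of Psmb9 at 2 h (-0.231), Psme2 in controls (-0.103) and Psmd5 at 8 h (0.032), and the response difference at 8 h of Psmb10 (0.001) and Psme2 (0.107). In set B alone they turned for Psme4 at 2 h under the WT label (-0.022) and Psme3 at 8 h under the KO label (-0.14), the latter also without the BMDM-labelled libraries (-0.028). The causes were not tested.

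Leaving out 1 library at a time gave 9 to 18 genes higher at 2 h under the KO label, moved by KO-labelled control replicate 4 and 2 h replicates 1 and 6, and 0 to 1 higher between labelled controls, moved by WT-labelled control replicate 1. The log2 ratio of Psmb10 to Psmb7 ranged from 0.375 to 0.591 between labelled controls and from -0.043 to 0.082 at 8 h. Psmb8 to Psmb5 ranged from 0.346 to 0.529 between labelled controls and from 0.25 to 0.491 at 2 h under the WT label. Psmb9 to Psmb6 ranged from 0.406 to 0.581 between labelled controls, 0.182 to 0.418 at 2 h, 0 to 0.168 in the WT-labelled and -0.239 to 0.005 in the KO-labelled 2 h response. Psme3 at 8 h under the KO label ranged from -0.026 to 0.1. Psma8 from 2 to 8 h ranged from -0.765 to -0.564 (WT label) and from -0.922 to -0.544 (KO label). No paired fit was run, since the labels give no replicate numbers and those used here follow the order of deposit. Xist was high in replicate 1 of all 3 WT-labelled groups and the sets follow the numbers, and whether equal numbers share a source was not tested.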
